A study of Homo sapiens with 6 samples.

Results

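Transcription factors that hold cells in an epithelial state belong to several unrelated families. ELF3, EHF and ELF5 are the epithelium-specific ETS factors, and SPDEF is an ETS factor known for secretory and goblet cells. The grainyhead-like factors GRHL1, GRHL2 and GRHL3 activate genes of cell junctions and of the epithelial barrier. OVOL1 and OVOL2 are zinc finger repressors that hold down mesenchymal genes, among them ZEB1, and KLF5 is a zinc finger factor of proliferating epithelial cells. These 10 genes were chosen by name, and all 10 were found among the 28395 genes of the deposited table. They and the gene lists below were chosen with earlier results of these data known. Shares of them that were called are therefore descriptions beside those of all tested genes, and give no independent support.

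The cells were HCC827, an established human lung adenocarcinoma line whose EGFR, the receptor that erlotinib inhibits, is activated by a deletion. All libraries share this line, and so this genotype. They were made from cells given the vehicle DMSO (3 libraries, numbered 1 to 3) or 1 μM erlotinib (3 libraries, numbered 4 to 6 in the table), in both cases for 24 h. The comparison asks what inhibition of EGFR changed at the RNA level. Libraries held 20858083, 24641819 and 21172884 reads on genes in DMSO and 21944007, 20760204 and 21678395 with erlotinib. The study states in general that its experiments were repeated independently. The labels do not say whether the libraries of a group came from separate cultures, and if they did not, p-values measure only a technical spread between these libraries.

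The values are signal, that is, the reads of a gene divided by 1 size factor per library. Log2 fold changes compare erlotinib with DMSO on log2(signal + 1), with limma over the 14215 genes whose mean signal was at least 10, two-sided, with Benjamini-Hochberg adjustment and a threshold of 0.05. In RNA from bulk cells, a change of level within each cell and a change in the share of cells that hold the transcript cannot be told apart.

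The cells held epithelial RNA in both conditions. The mean signal of CDH1, which encodes E-cadherin, was 27824 ± 967 without and 30609 ± 633 with the drug (SD, n = 3 per group), and that of EPCAM, an epithelial adhesion molecule, 9852 ± 235 and 9485 ± 281. Of 6 epithelial markers, 0 were higher and 4 lower (background 35.3% and 35.4% of all tested genes), and their summed signal was 286810, 254720 and 276890 in DMSO and 185950, 190140 and 191720 with erlotinib. KRT7, a keratin of glandular epithelia, was the most abundant of them, with means of 123690 and 79897, and the 4 lower genes were the keratin genes KRT7, KRT8, KRT18 and KRT19. With no filter 2 of the 6 were lower, and KRT7 was not called (adjusted p = 0.822, limma). Of 12 markers of leukocytes, endothelium and fibroblasts, 3 had enough signal to test. Summed over the 12, the signal was 2827, 2814 and 3193 in DMSO and 3300.0, 3603 and 3535 with erlotinib, nearly all of it CD68, a lysosomal protein gene that many cell types transcribe. Without CD68 the sums were 56.7, 25.1 and 56.7 in DMSO and 93.2, 76.2 and 85.2 with erlotinib. These sums were higher in every erlotinib library, but only through the endothelial gene VWF. Its signal was 3.40, 0.93 and 7.49 in DMSO and 35.1, 25.7 and 21.5 with erlotinib. Without VWF as well, the sums of the groups overlap. Of the 4 fibroblast genes, PDGFRA and DCN had 0 reads in every DMSO library and at most 3 with erlotinib, COL3A1 had at most 2 reads in any library, and LUM had 2, 4 and 6 reads in DMSO and 10, 10 and 20 with erlotinib. The macrophage gene ITGAM, also too low to test, had 6, 6 and 2 reads and 13, 18 and 10 reads, so that the groups of LUM and ITGAM did not overlap. Of the 3 markers tested, VWF (log2 fold change 2.75, and 1.44 with a pseudocount of 10) and CD68 (0.23, adjusted p = 0.0514 without erlotinib library 5 and 0.0674 with no filter, limma) were higher, and PECAM1, like VWF an endothelial gene, had a log2 fold change of -0.55 (adjusted p = 0.348, limma). VWF was tested only through its erlotinib libraries, with mean signals of 3.94 and 27.4, so its call gives no support. The part of either marker list in the results that follow was not tested.

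With erlotinib 6 of the 9 members that could be tested were higher and 0 lower. The rises were those of GRHL3, ELF3, EHF, OVOL2, GRHL2 and KLF5, with log2 fold changes from 3.18 down to 0.29. GRHL1, OVOL1 and SPDEF did not pass the threshold, and ELF5 had no read. Over all tested genes 35.3% were higher and 35.4% lower (5012 and 5031 genes, 70.7% in either direction). When libraries were scaled by total count, 6156 genes were higher and 3955 lower, and the counts of members were the same. The median log2 fold change was 0.46 over the members tested and 0.017 over all tested genes. In all 6 members that rose, every erlotinib library lay above every DMSO library, as 36.7% of tested genes did (73.6% were apart in either direction).

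**Figure D1:**
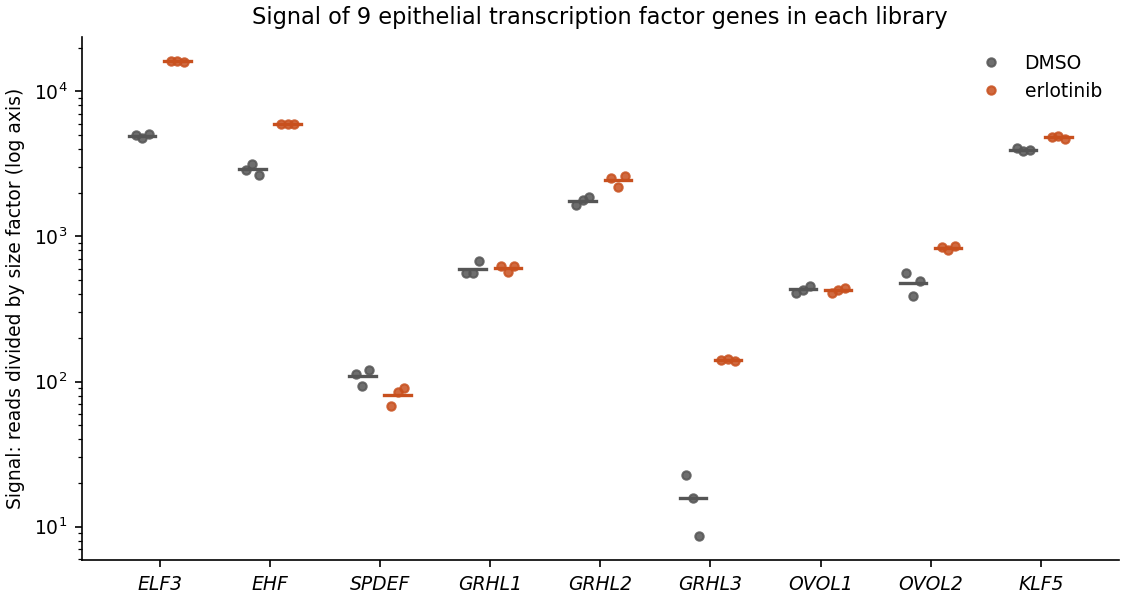
Signal (reads divided by the size factor, log axis) of the 9 members with reads, in the 3 DMSO and the 3 erlotinib libraries. Points are libraries and bars are group means. The erlotinib points of ELF3, EHF, GRHL2, GRHL3, OVOL2 and KLF5 lie above all their DMSO points, and those of GRHL1 and OVOL1 overlap them.

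Start regions of some members are shown first, because members of these families bind DNA through short motifs that can be searched for there. The sequences are from RefSeq (GRCh38.p14), which listed a promoter for ELF3, EHF, ELF5, SPDEF, GRHL1, GRHL3 and KLF5. The windows are the 250 bases upstream of an annotated start. They were searched on both strands for AACNGGTT (grainyhead-like factors), GGAAGT (ETS factors), GGGNGTGG (Krüppel-like factors), CCGTTA (OVOL factors), TGANTCA (AP-1), CACCTG (the E-box that ZEB and SNAI repressors bind) and TATAAA. Of 35116 promoter windows, 1.49%, 19.5%, 15.7%, 2.45%, 6.57%, 17.5% and 10.7% hold these motifs, in that order. The first GRHL3 window (chr1:24319107-24319356, plus strand) belongs to the member that rose most. Its capitals mark 2 overlapping matches to the reverse complement of GGGNGTGG, which begin 119 and 112 bases upstream of the start, and CACCTG, which begins 21 bases upstream.
GRHL3: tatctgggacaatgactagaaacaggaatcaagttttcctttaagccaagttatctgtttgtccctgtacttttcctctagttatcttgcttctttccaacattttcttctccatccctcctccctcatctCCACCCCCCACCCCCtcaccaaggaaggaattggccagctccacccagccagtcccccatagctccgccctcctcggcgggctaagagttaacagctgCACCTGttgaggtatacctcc
The ELF3 promoter also holds CACCTG, 120 bases upstream of its start, and TATAAA, 34 bases upstream. The 30 bases around its E-box (chr1:202010455-202010484, plus strand) are shown with the E-box in capitals.
ELF3: gaatatgcaaatCACCTGgggccaggagcc
EHF, which rose, and GRHL1, whose groups overlapped, are shown as windows without a match. Neither of these windows (chr11:34624007-34624256 and chr2:9951443-9951692, both plus strand) holds any of the motifs as spelled, so they carry no capitals. G and C make up 81.6% of the GRHL1 window. The EHF window lies within the gene, which begins at 34621093, and the bases upstream of that position were not searched.
EHF: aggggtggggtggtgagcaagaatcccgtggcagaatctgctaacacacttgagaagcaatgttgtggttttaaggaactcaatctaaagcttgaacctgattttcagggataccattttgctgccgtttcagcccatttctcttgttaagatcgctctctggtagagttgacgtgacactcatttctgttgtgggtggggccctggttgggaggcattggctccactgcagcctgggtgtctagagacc
GRHL1: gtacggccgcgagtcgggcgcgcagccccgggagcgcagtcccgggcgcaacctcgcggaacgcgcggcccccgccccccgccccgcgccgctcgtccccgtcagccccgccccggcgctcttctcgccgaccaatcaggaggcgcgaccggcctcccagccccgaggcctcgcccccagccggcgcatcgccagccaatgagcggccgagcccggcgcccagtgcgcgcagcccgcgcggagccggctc
A match is a run of letters and not a measured binding site. CACCTG is in 17.5% of all windows, and whether the members hold it more often was not tested. Besides the matches named above, the only one in the members' windows was TATAAA in the first KLF5 window, 194 bases upstream.

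ELF3 (Entrez gene 1999, chromosome 1, 202010587 to 202017183 of GRCh38, plus strand) had the most signal of the members with erlotinib. Its signal was 5024, 4754 and 5084 in the DMSO libraries and 16074, 16309 and 15878 in the erlotinib libraries. The groups were far apart, at 4954 ± 176 and 16087 ± 216 (SD, n = 3 per group), and the spread within each was small. The log2 fold change, 1.70 ± 0.06 (SE), had an adjusted p of 1.5e-15 (limma) and equals a rise of 3.25-fold. Of all tested genes, 91.5% had a log2 fold change as low or lower.

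EHF (Entrez gene 26298, chromosome 11, 34621093 to 34663288, plus strand) is another epithelium-specific ETS factor. It had a signal of 2881, 3147 and 2653 in DMSO and of 5986, 5924 and 5952 with erlotinib. The DMSO libraries were the more scattered group (2894 ± 247 against 5954 ± 31.2, SD, n = 3 each), and none came near the erlotinib libraries. This rise of 2.06-fold, 1.04 ± 0.07 on the log2 scale (SE), had an adjusted p of 3.1e-11 (limma).

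ELF5 (Entrez gene 2001, chromosome 11, 34478791 to 34513794, minus strand), known from the mammary gland and the placenta, lies 107 kb from EHF. It had 0 reads in all 6 libraries, for which the exact Poisson upper limit is 3.69 reads per library (95%). For scale, 3 reads are a signal of 2.77 to 3.40, depending on the library. Such limits cover only the error of counting, because reads without molecular identifiers can repeat 1 molecule. No copy of ELF5, or of any other member, was found on the alternate contigs of the genome, where a copy could take reads from a gene.

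SPDEF (Entrez gene 25803, chromosome 6, 34537802 to 34556329, minus strand) had a lower mean signal with erlotinib. Its signal was 112, 92.9 and 119.9 in DMSO and 67.4, 85.1 and 89.9 with erlotinib. The highest erlotinib library lay just below the lowest DMSO library, and the groups of 36.9% of tested genes were apart in this direction. Its log2 fold change was -0.42 with a 95% interval from -0.86 to 0.02 (adjusted p = 0.0804, limma), so the difference did not pass the threshold. Without DMSO library 2 the adjusted p was 0.041 (limma), with a log2 fold change of -0.53, and under scaling by total count it was 0.306, with -0.24.

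GRHL3 (Entrez gene 57822, chromosome 1, 24319357 to 24364482, plus strand), a regulator of skin barrier formation and wound closure, rose most. Its signal was 22.7, 15.8 and 8.56 in DMSO and 141, 143 and 139 with erlotinib, from 20, 17 and 8 reads and 153, 144 and 148 reads. The DMSO libraries differed among themselves, but their highest upper limit was 30.9 reads and the lowest lower limit with erlotinib 121 reads (exact Poisson limits, 95%, counting error only). On the log2 scale the rise was 3.18 ± 0.32 (SE), with an adjusted p of 1.9e-08 (limma). Raising the pseudocount to 10 gave 2.59, and fits that lacked 1 library gave 2.83 to 3.48. GRHL3 overlaps STPG1 on the other strand, and with no strand stated for the counting, reads in the shared stretch cannot be told apart. GRHL3-AS1, also on the other strand, overlaps the start of GRHL3. It is absent from the deposited table, so its part in the reads of GRHL3 could not be checked. The mean signal of STPG1 went from 198 to 254, a log2 fold change of 0.35 (adjusted p = 0.0331, limma).

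GRHL2 (Entrez gene 79977, chromosome 8, 101492439 to 101681200, plus strand) sustains E-cadherin and claudin transcription in many epithelia. It had a signal of 1652, 1786 and 1864 in DMSO and of 2535, 2187 and 2593 with erlotinib. Erlotinib library 5 was the lowest of its group and still above every DMSO library. The rise was 1.38-fold, or 0.46 ± 0.08 as log2 (SE; adjusted p = 3.1e-05, limma).

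GRHL1 (Entrez gene 29841, chromosome 2, 9951693 to 10002277, plus strand) is known for its part in desmosomal cadherin transcription. Its signal was 560.4, 558 and 674 in DMSO and 629, 566 and 629.98 with erlotinib, so the groups overlapped. Its log2 fold change was 0.03 with a 95% interval from -0.19 to 0.25 (adjusted p = 0.807, limma), and 0.21 under scaling by total count (adjusted p = 0.093).

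OVOL2 (Entrez gene 58495, chromosome 20, 18024152 to 18059188, minus strand) represses ZEB1. It had a signal of 559, 387 and 490.2 in DMSO and of 846, 806 and 865 with erlotinib. DMSO library 2 was the lowest of its group, and the log2 fold change was 0.82 with all libraries and 0.68 without that one. Its standard error was 0.12 and its adjusted p 2.3e-06 (limma), and the rise was 1.77-fold.

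OVOL1 (Entrez gene 5017, chromosome 11, 65787063 to 65797214, plus strand), known from the terminal differentiation of skin cells, had nearly equal values in both groups. Its signal was 406, 429.98 and 458 in DMSO and 405, 431 and 444 with erlotinib. The difference was -0.02 as log2 with a 95% interval from -0.24 to 0.21 (adjusted p = 0.903, limma), and 0.16 under scaling by total count. OVOL1-AS1, on the other strand within OVOL1, went from a mean signal of only 1.64 to 3.78.

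KLF5 (Entrez gene 688, chromosome 13, 73054976 to 73077538, plus strand) rose least of the 6. It had a signal of 4075, 3888 and 3919 in DMSO and of 4873, 4938 and 4678 with erlotinib. The groups were apart but close, and the rise was 1.22-fold (log2 0.29 ± 0.06, SE; adjusted p = 4.5e-04, limma).

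**Figure D2:**
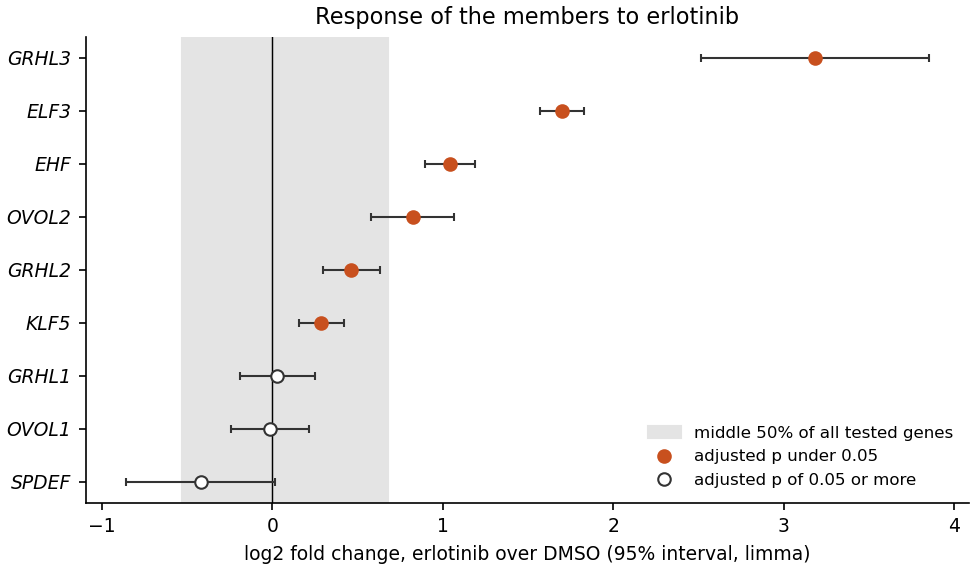
Log2 fold change of each tested member (x axis, erlotinib over DMSO) with its 95% interval from limma. Filled points passed an adjusted p of 0.05, and the grey band spans the middle 50% of all tested genes, from -0.53 to 0.68. GRHL3, ELF3, EHF and OVOL2 lie to the right of the band.

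In DMSO KLF5 and ELF3 led the members in level, and GRHL3 was far below the other members with reads. Levels between genes are given as signal per kb of exon sequence, from the union of the exons that GENCODE release 44 lists. In DMSO the order was KLF5 (1077 ± 27.15 per kb), ELF3 (689 ± 24.5), EHF (437 ± 37.4), GRHL2 (292 ± 17.8), OVOL2 (217 ± 39.3), OVOL1 (113 ± 6.84), GRHL1 (75.15 ± 8.35), SPDEF (56.6 ± 7.28) and GRHL3 (3.68 ± 1.66; SD, n = 3 each). Each neighbouring pair in this order had ranges that did not overlap. With erlotinib ELF3 (2239 ± 30.03 per kb) stood above KLF5 (1313 ± 36.9), at 1.71 times its level, where in DMSO KLF5 had been 1.56 times above ELF3. GRHL2 (403 ± 36.3) and OVOL2 (381 ± 13.7) overlapped in their ranges with erlotinib, and the rest kept the order of DMSO. GRHL3 reached 33.0 ± 0.479 per kb with erlotinib and stayed the lowest of the members with reads, below SPDEF (42.2 ± 6.20). When the longest transcript served as length, GRHL3 stood above SPDEF and OVOL2 above GRHL2 with erlotinib.

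**Figure D3:**
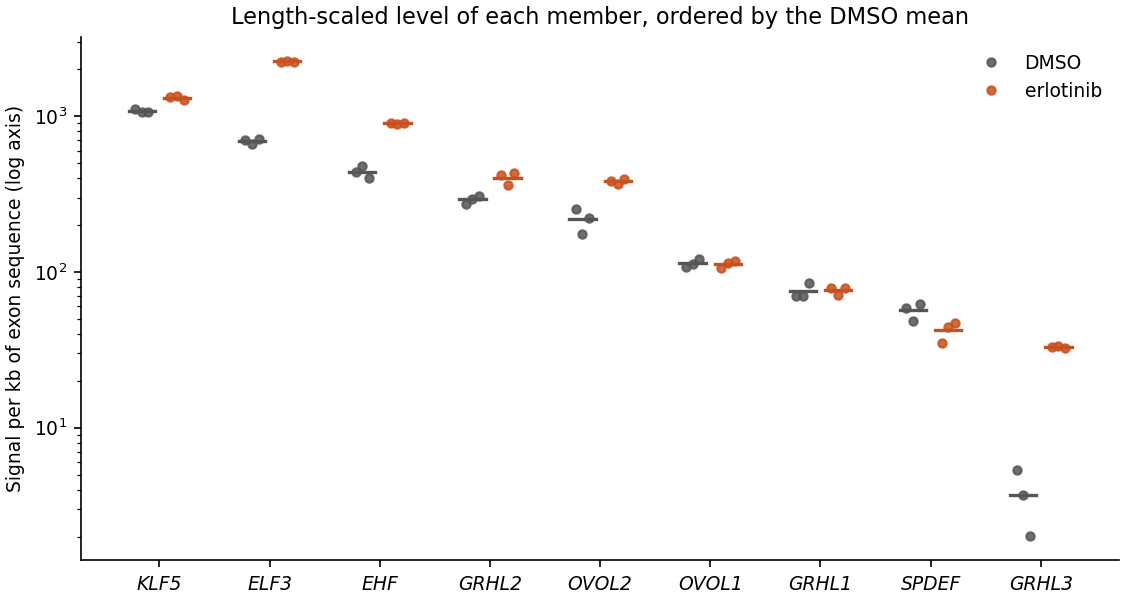
Signal per kb of exon sequence (log axis) of the 9 members with reads, ordered by the DMSO mean. Points are libraries and bars are group means. KLF5 is highest in DMSO and ELF3 with erlotinib, and GRHL3 is lowest in both conditions.

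Ratios within a library depend little on how libraries are scaled, and 7 pairs of related members were compared in this way. The log2 ratio of ELF3 to EHF was 0.80, 0.59 and 0.94 in DMSO and 1.43, 1.46 and 1.42 with erlotinib, so ELF3 gained on EHF by 0.66. The log2 ratio of OVOL1 to OVOL2 fell by 0.84, from -0.46, 0.15 and -0.10 in DMSO to -1.06, -0.90 and -0.96. These ratios are of signal not divided by length, so they show how the pair shifted and not which gene had the higher level. Among the grainyhead-like genes the log2 ratio of GRHL1 to GRHL2 fell by 0.43, that of GRHL2 to GRHL3 fell by 2.72 and that of GRHL1 to GRHL3 fell by 3.15. Over the alternatives these changes ran from -3.07 to -2.13 for GRHL2 to GRHL3 and from -3.50 to -2.56 for GRHL1 to GRHL3. ELF3 and EHF gained on SPDEF by 2.12 and 1.47. The 7 pairs share members and are not separate results. In all of them the DMSO and erlotinib ranges were apart, where those of single genes were apart in 73.6% of tested genes, and the exact permutation test (two-sided) gave p = 0.1 for each (0.1 after Benjamini-Hochberg adjustment over the 7), the smallest value that 3 libraries against 3 allow, so no pair could pass 0.05.

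**Figure D4:**
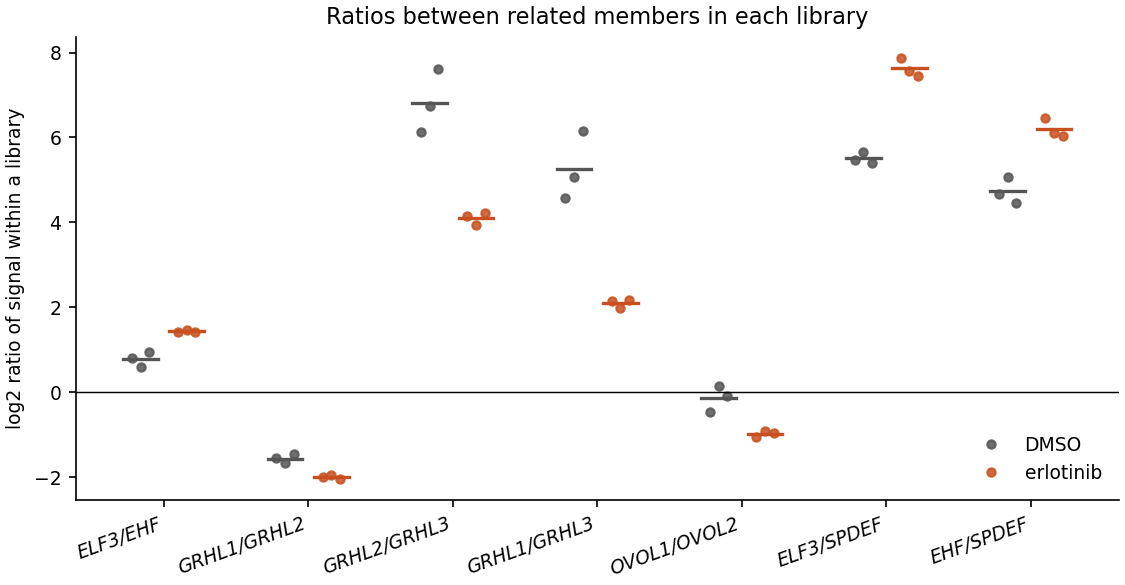
Log2 ratio of signal between 2 related members within each library, for 7 pairs. Points are libraries and bars are group means. The erlotinib points are apart from the DMSO points in every pair, upward for ELF3/EHF, ELF3/SPDEF and EHF/SPDEF and downward for the grainyhead-like and OVOL pairs.

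By the distance between centred log2 values over the 6 libraries, the pattern of GRHL3 was most like those of GPX2 (distance 0.40), TMEM86A (0.43) and SLC6A20 (0.44), among the 11068 genes whose mean signal reached 100. Their log2 fold changes were 2.89, 3.06 and 3.07. The 6 libraries form only 2 groups, and this distance depends on the size of the change and on the scatter within the groups.

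The list of adhesion and junction genes is mixed, and it also holds other epithelial genes, such as keratins, MUC1, ERBB3 and MAL2. Its counts are therefore not of adhesion and junction genes alone. Genes of this list, many of them known targets of GRHL2 and ELF3, moved in both directions. Of 40 on the list, which holds the 6 epithelial markers too, 38 were tested. Of these 21 were higher, 11 lower and 6 neither. The shares were 55.3% higher and 28.9% lower, beside 35.3% and 35.4% of all tested genes, and the median was 0.27, beside 0.017. The largest rises were those of TJP3, a tight junction scaffold (log2 fold change 3.03), MUC1, a membrane mucin (2.82), and ERBB3, a receptor of the EGFR family (1.68). The largest falls were those of KRT18 (-1.25), KRT8 (-0.83) and MAL2 (-0.81), the first of which are the keratin pair of simple epithelia and the last a transport protein of polarised cells. The claudin genes CLDN3 (1.30), CLDN4 (0.93) and CLDN7 (0.66), named here after their values were seen, rose as well. CDH1 had a log2 fold change of 0.14 (adjusted p = 0.0531, limma), which missed the threshold, and EPCAM one of -0.05 (adjusted p = 0.429, limma). CDH1 did pass with edgeR (adjusted p = 0.023), with DESeq2 (0.0163) and without DMSO library 2 (0.0034, limma), and EPCAM turned to 0.12 under scaling by total count (adjusted p = 0.0618, limma). TJP1 and MARVELD2 could not be tested, with at most 5 reads in any library. Both have a copy on an alternate contig, as does OCLN (higher), so their values are uncertain.

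The repressors that drive epithelial-mesenchymal transition are the factors that OVOL and grainyhead-like factors oppose. Of 11, 5 were tested, with 3 lower and 1 higher (35.4% and 35.3% of all tested genes), at a median log2 fold change of -0.50. SNAI1 fell from 155, 215 and 176 to 48.9, 50.5 and 49.6 (log2 fold change -1.84, adjusted p = 8.0e-08, limma). SNAI2 fell from 625, 725 and 593 to 299.9, 319 and 294 (-1.08, adjusted p = 2.9e-08). In both genes every erlotinib library lay far below every DMSO library. ZEB1, the gene that OVOL2 represses, had a signal of 112, 148 and 137 in DMSO and 101, 83.2 and 94.5 with erlotinib (-0.50, adjusted p = 0.0255, limma). That call was lost under scaling by total count (adjusted p = 0.145) and without DMSO library 2 (0.0816), DMSO library 3 (0.0645) or erlotinib library 5 (0.0938). It was also lost with no filter (adjusted p = 0.0549, limma) and at a threshold of 0.01. SNAI3 was higher, from a mean signal of 11.1 to 36.0 (1.56, adjusted p = 0.00512, 0.0557 without erlotinib library 4 and 0.104 with no filter, limma). TWIST2 had a log2 fold change of -0.02 (adjusted p = 0.883, limma; 0.16 under scaling by total count), and ZEB2, TWIST1, PRRX1, TCF4, FOXC2 and GSC had mean signals below 10.

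Of 20 mesenchymal genes, 10 were tested, and 8 were higher, 1 lower and 1 neither, at a median of 1.32. The count higher was 5 with no filter and 5 with at least 10 reads in every library, and 6 to 8 in fits that lacked 1 library. Over all tested genes 35.3% were higher and 35.4% lower. FBN1, SPARC and COL5A1, which encode matrix proteins, had the largest rises (2.97, 1.89 and 1.81), from mean signals of 12.3, 13.9 and 4.94 in DMSO. With a pseudocount of 10 FBN1 had 2.31 and COL5A1 0.90. COL5A1 reached the minimum signal only through the erlotinib libraries, where its mean was 17.5, so its call gives no support. With no filter SPARC and COL5A1 were not called (adjusted p = 0.0707 and 0.0881, limma). FN1, which encodes fibronectin and is named here after its values were seen, rose 3.03-fold, from a mean signal of 1693 to 5153 (adjusted p = 6.0e-14, limma). ITGA5, an integrin subunit that binds fibronectin, fell by 0.51. VIM, the intermediate filament of mesenchymal cells, had a log2 fold change of -0.13 (adjusted p = 0.361, limma), and of 0.045 under scaling by total count.

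Of 23 barrier differentiation genes, 11 were tested, with 4 higher and 3 lower. These shares, 36.4% and 27.3%, were near or below those of all tested genes (35.3% and 35.4%). KRT4, a keratin of mucosal surfaces (2.62), CNFN, a cornified envelope gene (1.49), and ABCA12, a lipid transporter of skin (1.36), had the largest rises past the threshold, and SPRR1B (-1.70), ALOXE3 (-1.21) and KRT10 (-0.64) the largest falls past it. SPRR1A had -0.92 and did not pass (adjusted p = 0.167, limma). CNFN reached the minimum signal only through its erlotinib libraries (means of 9.06 and 28.6), so its call gives no support. That call was lost with no filter (adjusted p = 0.0849, limma) and without erlotinib library 4 (0.0969). In each of these fits 2 genes of the list were higher. Of 17 secretory genes, 8 were tested, with 4 higher and 2 lower (50% and 25%, beside 35.3% and 35.4% of all tested genes). PIGR, the receptor that carries immunoglobulins across mucosal epithelium (5.93, and 5.33 with a pseudocount of 10), ST6GALNAC1, a mucin sialyltransferase (3.25), and FCGBP, a mucus protein (1.66), rose most. XBP1, a factor of secretory cells, fell by 0.58, and CREB3L1 fell by 1.52 from a mean signal of 16.6, a call lost without DMSO library 2 (adjusted p = 0.0517) or erlotinib library 6 (0.102, limma). With no filter that call was lost too (0.079), and with a pseudocount of 10 the log2 fold change was -0.79. CREB3L1 was tested only through its DMSO libraries, since its mean with erlotinib was 5.38, so its call gives no support. Without DMSO library 3 it was below the minimum signal, and in each of these 3 cases 1 gene of the list was lower.

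Of 18 other regulators of epithelial cells, 13 were tested, and 9 were higher, 3 lower and 1 neither, at a median of 0.86. The shares were 69.2% higher and 23.1% lower, beside 35.3% and 35.4% of all tested genes. Because the list was chosen with earlier results of these data known, this difference gives no support. The signal of NKX2-1, the lineage factor of the lung, was 2864, 2899 and 3243 in DMSO and 9109, 8344 and 8478 with erlotinib. The groups were far apart, and the log2 fold change was 1.53 (adjusted p = 5.2e-14, limma). CEBPA rose by 2.06 on the log2 scale, from a mean signal of 32.9. HOPX, with means of 5.28 and 41.1 and a log2 fold change of 2.85 (1.73 with a pseudocount of 10), was tested only through its erlotinib libraries, so it gives no support to the count. FOXA2 (-1.01), MECOM (-0.52) and GATA6 (-0.34) fell, GATA6 with no call under scaling by total count (adjusted p = 0.309) or without DMSO library 3 (0.0876), erlotinib library 4 (0.0948) or erlotinib library 6 (0.154, limma). With no filter neither FOXA2 (adjusted p = 0.0574) nor GATA6 (0.104) was called (limma).

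Of 23 relatives of the members within their own families, 16 were tested, with 7 higher and 6 lower. These shares, 43.8% and 37.5%, were near those of all tested genes (35.3% and 35.4%). KLF4, the relative of KLF5 known from differentiating epithelium, had a signal of 1299, 1296 and 1358 in DMSO and 754, 742 and 731 with erlotinib. Its log2 fold change was -0.83 (adjusted p = 1.4e-08, limma), and that of KLF5 was 0.29. The difference between these genes was not tested. KLF2 (2.97, and 2.25 with a pseudocount of 10), KLF8 (1.39) and KLF9 (1.30) had the largest rises past the threshold, and UBP1 (-0.67) and KLF16 (-0.57) followed KLF4 among the falls past it. TFCP2L1 had -0.79 and did not pass (adjusted p = 0.0507, limma). KLF13, and CDSN of the barrier list, each with 0 reads in all libraries, have a copy on an alternate contig, so that their 0 is uncertain.

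**Figure D5:**
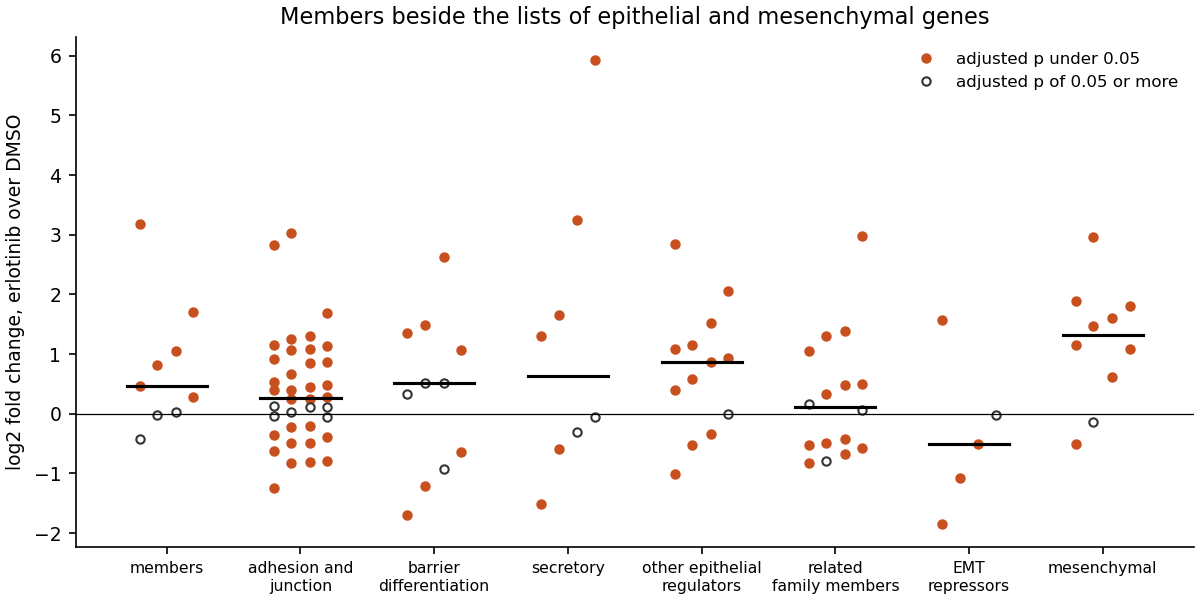
Log2 fold change (y axis, erlotinib over DMSO) of each tested gene of the members and of 7 lists. Filled points passed an adjusted p of 0.05, and bars are medians. The median is 0.46 for the members and 0.27 for the adhesion and junction list, which also holds other epithelial genes. It is -0.50 for the repressors of epithelial-mesenchymal transition (EMT) and 1.32 for mesenchymal genes.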

How the data were processed

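RNA of HCC827 cells was sequenced in 6 libraries, 3 with DMSO and 3 with erlotinib. Bowtie2 2.3.4, which does not split reads over introns, was used by the authors for mapping to GRCh38, and featureCounts 1.6.3 for counting reads that mapped to 1 place. DESeq2 1.18.1 is also named in the submitters' processing notes. The signal values the authors deposited are whole reads divided by 1 size factor per library. The recovered reads were whole (within 0.01) for 100% of values, with size factors between 0.882 and 1.08. The strand counted is not given in the sources used here. Entrez identifiers stood in for the symbols that 475 genes lacked. Replicates differed by more than sampling noise (chi-square divided by its degrees of freedom, 4.13 to 24.3).

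limma with a variance trend was run on log2(signal + 1). The alternatives were edgeR and DESeq2 on recovered reads, scaling to the total count, TMM factors in limma, pseudocounts of 0.1 and 10, no filter, at least 10 reads in every library, a threshold of 0.01, and each library left out. The fits were also run on simulated data, but no outcome is given here, so this lends the results no support. Copies on 261 alternate contigs were searched with minimap2 (at least 90% of a transcript at 97% identity or more). Named genes are the members, the repressors in full, and up to 3 largest rises and 3 largest falls per list. These rises and falls passed the threshold without overlap of the groups. Some genes that overlap a member or lie within 10 kb of it are named too, as are the 3 genes most like GRHL3. Further genes of the lists, among them some that did not pass the threshold or could not be tested, are named as well. The members and lists were chosen with earlier results of these data known, and so were the motifs. Versions were limma 3.58.1, DESeq2 1.42.0 and edgeR 4.0.16 in R 4.3.3, Python 3.11.15, matplotlib 3.10.9 and minimap2 2.31-r1302.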

Additional observations from a re-analysis of the deposited data

How the results depend on the processing

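ELF3, EHF, GRHL2, OVOL2 and KLF5 kept their direction and call under all 15 alternatives, and GRHL3 under the 14 that could test it, since DMSO library 3 had fewer than the 10 reads that 1 alternative needs. Their log2 fold changes lay between 1.67 and 1.88 (ELF3), 0.98 and 1.22 (EHF), 0.41 and 0.64 (GRHL2), 0.68 and 1.00 (OVOL2), 0.27 and 0.47 (KLF5) and 2.59 and 3.48 (GRHL3). The highest values of ELF3, EHF, GRHL2, OVOL2 and KLF5 came from scaling to the total count, which raised the median of all tested genes by 0.178. SPDEF ranged from -0.53 to -0.30 with each library left out and was called lower without DMSO library 2, so that 0 to 1 members were lower. GRHL1 had -0.016 to 0.12 with each library left out, and OVOL1 -0.058 to 0.028. Scaling to the total count gave GRHL1 0.21 and SPDEF -0.24, neither past the threshold, and OVOL1 0.16 and TMM factors in limma 6.5e-05, and gave TWIST2 0.16 under the former. TWIST2 had -0.12 to 0.030 with each library left out. Under scaling by total count EPCAM had 0.12 and VIM 0.045. The cause of these changes was not tested.

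With no filter, the counts were 7 genes of the adhesion and junction list lower, and 0 repressors, 5 mesenchymal and 2 barrier genes higher. They were also 1 secretory gene and 1 other regulator lower, 1 marker of other cell types higher and 2 epithelial markers lower. With at least 10 reads in every library, they were 0 repressors higher, 5 mesenchymal genes higher, 1 secretory gene lower and 1 marker of other cell types higher. At a threshold of 0.01, 1 secretory gene was lower. One epithelial marker, CDH1, was higher with edgeR, DESeq2, scaling to the total count, TMM factors in limma and a pseudocount of 0.1 (count 1 each, 0 as reported). Leaving out each library gave 0 to 1 repressors higher, 2 to 5 barrier genes higher, 1 to 2 secretory genes lower, 1 to 2 markers of other cell types higher and 0 to 1 epithelial markers higher. With the longest transcript in place of the exon union, the DMSO level per kb was 992 for ELF3, 536 for EHF, 110.7 for GRHL1, 338 for GRHL2, 5.53 for GRHL3, 144 for OVOL1, 302.5 for OVOL2 and 1183 for KLF5, in the same order, but with erlotinib OVOL2 then stood above GRHL2 and GRHL3 above SPDEF. No paired analysis was possible because the erlotinib columns are numbered 4 to 6 and carry none of the replicate numbers 1 to 3 of the labels, so the planned replicate block was not run. Depth limits GRHL3 in DMSO, at 8 to 20 reads per library, and ELF5.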

Other observations

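Of the genes that overlap a member or lie within 10 kb of it, some, such as GRHL3-AS1, were absent from the deposited table. Among those present, 5 had enough signal to test. All 5 had a higher mean signal with erlotinib and no overlap between the groups (36.7% of tested genes lay above in this way). RNPEP, an aminopeptidase gene beside ELF3, had a log2 fold change of 0.37 (adjusted p = 6.8e-05, limma). CAT, the catalase gene beside ELF5, had one of 0.49 (adjusted p = 4.3e-04), AP5B1 beside OVOL1 one of 0.45 (adjusted p = 8.2e-05) and PACSIN1 beside SPDEF one of 1.22 (adjusted p = 2.9e-05, limma). STPG1, which overlaps GRHL3, rose least. Of the members beside them, ELF3 and GRHL3 were higher, OVOL1 and SPDEF did not pass the threshold and ELF5 had no read. The difference between neighbours and members was not tested.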
